A study of Mus musculus with 6 samples.

Results

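The mitochondrial ribosomal protein genes are the nuclear genes for the protein subunits of the mitoribosome. They were taken as all protein-coding genes of the GENCODE M21 annotation whose symbol is Mrpl or Mrps followed by a number. Of 78 such genes, 77 were in the table of 43432 genes, and Mrpl33 was not analysed here. A further 5 genes with such a symbol are not protein-coding and were left out. The members lie on 17 chromosomes, and 50 of them encode large-subunit proteins, 26 encode small-subunit proteins and 1, Mrps36, was placed in neither subunit, because its product is now assigned to the 2-oxoglutarate dehydrogenase complex.

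RNA was sequenced in bulk from CD11b+ spleen cells of 6 Rag1 KO mice of strain C57BL/6J, sorted 8 days after cell transfer. All 6 mice had received 2D2 CD4+ T cells, which carry a T cell receptor against myelin oligodendrocyte glycoprotein (MOG), and MOG-loaded B cells grown in the iGB culture, and hosts of this genotype make no mature lymphocytes of their own. In the WT iGB6 group (3 mice) the B cells were wild type and were transduced with a pMSCV retrovirus that carries Il6 beside eGFP. The B cells given to the 3 IgHMOG iGBGFP mice bore the IgHMOG heavy chain and the empty pMSCV vector, so B cell genotype and vector changed together. Replicate 1 was female and replicates 2 and 3 were male in each group, and each library came from its own mouse.

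Mitochondria translate the few proteins encoded by their own DNA, all of them parts of the oxidative phosphorylation machinery, on ribosomes of their own. The ribosomal RNAs of these particles come from mitochondrial DNA, whereas their proteins are made in the cytosol and imported. Some of the proteins descend from the bacterial ribosome and others exist only in mitochondria. Mature neutrophils, a type of cell that carries CD11b, rely mainly on glycolysis, while their dividing precursors hold more mitochondria.

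Libraries held 5196339 to 7564254 reads assigned to genes, as recovered from the normalized counts, and 14816 to 17013 detected genes. The 10 most abundant genes took between 16.4 and 29.1% of each IgHMOG iGBGFP library and between 25.0 and 34.4% of each WT iGB6 library. Itgam, which encodes CD11b, and the other 9 myeloid markers checked were all measured. Their summed level ran from 362162 to 540020 normalized counts in IgHMOG iGBGFP and from 427819 to 700426 in WT iGB6. That sum mainly reflects Lyz2, S100a8 and S100a9, with means of 207356, 151333 and 83177 over all libraries. Of the 10 markers, 7 leaned higher in WT iGB6 and 3 lower, and none had an adjusted p under 0.05 in limma. The lower ones were Csf3r, Csf1r and Cd68, at -1.12, -0.92 and -0.63 on the log2 scale. Il6 was at 9.21, 17.2 and 6.00 normalized counts in IgHMOG iGBGFP replicates 1 to 3 and at 3.56, 2.37 and 3.37 in WT iGB6, in cells that are not the ones that carried the vector. In bulk RNA, fewer cells of a type and less RNA per cell cannot be told apart.

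Promoter sequence is shown first, because nuclear genes for mitochondrial proteins are known for sites of the factors NRF1 and GABP, the second of which belongs to the ETS family. RefSeq start sites on GRCm38.p6 were matched by symbol for 68 of the 77 members, with 74 windows that reach from 250 bases before to 50 bases after a start. The ETS core CCGGAAG was found on either strand in 33.8% of member windows, in 19.5% of the 9942 windows of all tested genes and in 8.86% of all 32851 windows. The NRF1 core GCATGCG was found in 9.46%, 6.62% and 3.58%, and the E-box CACGTG, which Myc binds, in 9.46%, 10.2% and 7.15%. No motif holds another, and the median GC content was 58.8% in member windows and 60.3% in those of tested genes. A match describes letters and not binding. The 120 bases before the start are printed for 3 members, with motif matches in capitals. Mrpl43 (chr19:45006443-45006562, minus strand), the only tested member with all WT iGB6 libraries lower, has 2 ETS matches. Mrps22 (chr9:98601680-98601799, minus strand), the small-subunit gene with the largest fold change, has 1. Mrpl45 (chr11:97315596-97315715, plus strand), the member with the smallest p, has no match to these letters.
Mrpl43: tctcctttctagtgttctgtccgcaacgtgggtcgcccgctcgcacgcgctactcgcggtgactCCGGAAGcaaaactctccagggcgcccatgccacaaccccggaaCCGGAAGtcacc
Mrps22: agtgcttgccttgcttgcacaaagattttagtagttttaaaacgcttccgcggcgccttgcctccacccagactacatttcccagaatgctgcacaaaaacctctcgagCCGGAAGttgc
Mrpl45: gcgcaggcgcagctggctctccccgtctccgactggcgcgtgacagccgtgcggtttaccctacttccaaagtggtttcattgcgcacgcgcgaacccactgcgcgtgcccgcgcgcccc

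The comparison of WT iGB6 with IgHMOG iGBGFP asks how the splenic CD11b+ cells of the 2 kinds of recipients differed. For the mitoribosome, no gene passed the test. Of the 77 members, 70 had a mean of at least 10 normalized counts and were tested with limma on log2(normalized count + 1) with group and sex as terms, and 0 of 70 reached an adjusted p under 0.05 in either direction, where 6.12% of all 9923 tested genes did (2.75% higher and 3.37% lower in WT iGB6). At an unadjusted p under 0.05 there were 7 members, all higher in WT iGB6, which is 10% of them beside 24.5% of all tested genes. edgeR on reads recovered from the normalized counts called 0 members (6.11% of all genes) and DESeq2 called 1, Mrpl45 (9.58%). The authors' deposited table also called Mrpl45 alone among 72 members with an adjusted p (8.18% of all its genes). A limma fit with library weights called 4 members (14.5% of all genes) and one with the replicate number as a block called 1 (10.1%). Under each of these rules the share of members called was below that of all genes, and the difference between the shares was not tested.

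The fold changes of the members were small and leaned upward on the scale of the deposited table, though not with equal library totals. Their median log2 fold change was 0.17, with quartiles of -0.01 and 0.30, beside a median of 0.02 and quartiles of -0.32 and 0.32 over all tested genes. The lowest member value was -0.41 and the highest 0.76. A change smaller than 0.5 on the log2 scale was found for 65 of the 70 members (92.9%) and for 68.4% of all tested genes. The precision behind this is given by the 95% intervals of the log2 fold changes, which lay inside a 2-fold change in either direction for 62 members and reached 2-fold or more for 8. Between 8 and 670 reads lay behind a tested member's value in a library, with a median of 138, and the SE of the log2 fold change was 0.17 to 0.40.

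**Figure D1:**
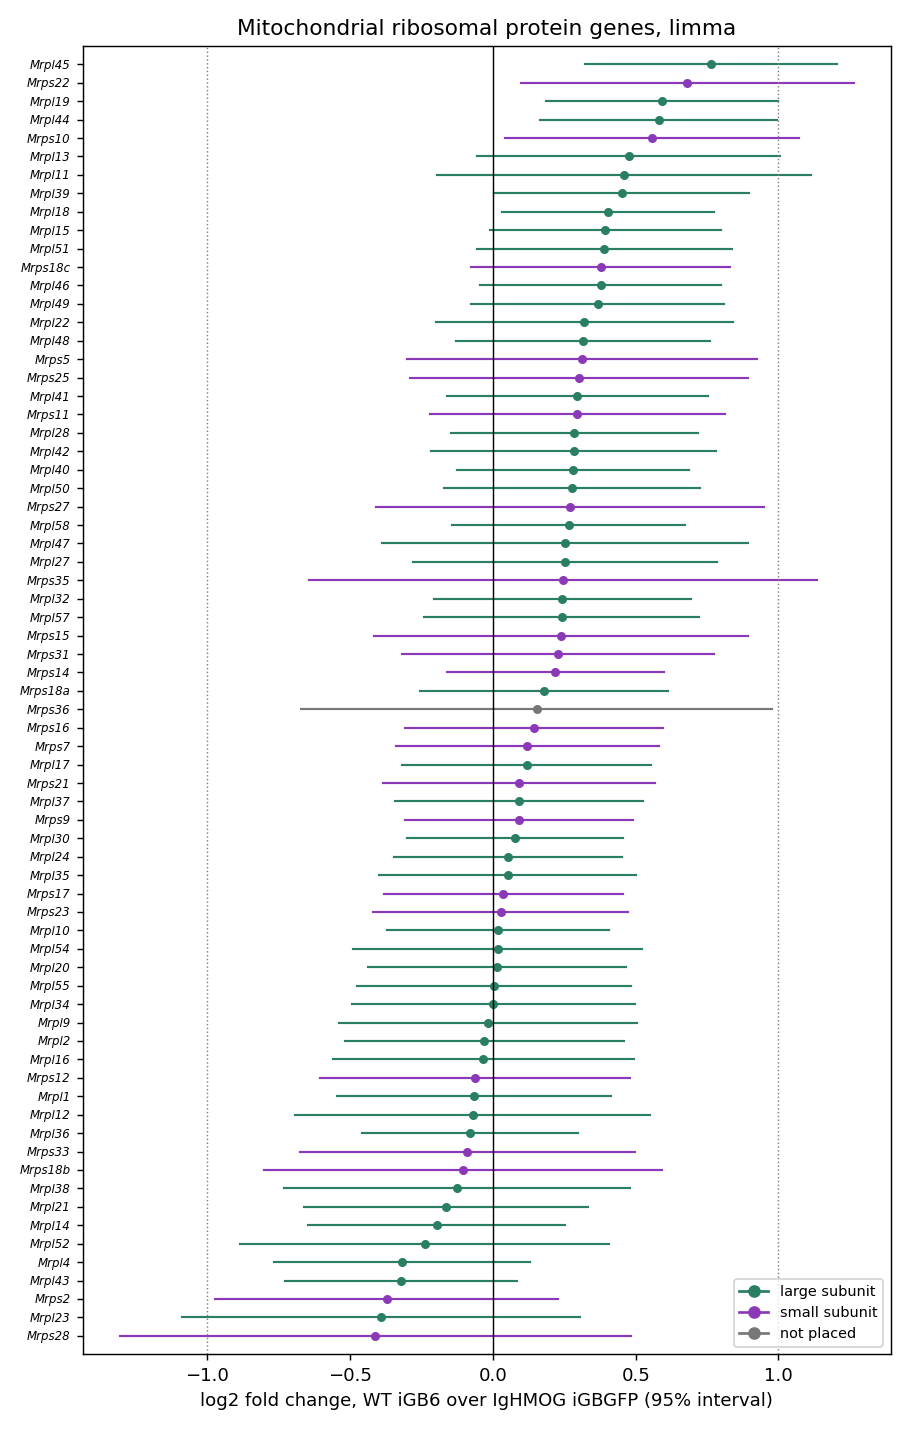
Difference between the groups (log2, WT iGB6 minus IgHMOG iGBGFP) for the 70 tested members, from limma on log2(normalized count + 1), with points for the estimates, bars for 95% intervals and dotted lines at a 2-fold change. Values run from -0.41 to 0.76, and 62 of the 70 intervals stay between the dotted lines.

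That lean was seen with the deposited, TMM and quantile scales and not with equal library totals. On the deposited scale 52 members were above 0 and 18 below. The counts were 46 and 24 with TMM scaling and 48 and 22 with quantile normalization. With each library scaled to the same total, a choice added after the data were seen, 34 were above 0 and 36 below, the median of the members was -0.04 and that of all tested genes moved to -0.19. The members' median minus that of all genes was 0.15 on the deposited scale, 0.15 with TMM scaling, 0.12 with quantile normalization and 0.15 with equal totals. Summed over the 77 members, the libraries of IgHMOG iGBGFP held 9868, 10927 and 9850 normalized counts and those of WT iGB6 held 11849, 11412 and 11488. These sums did not overlap and were 10215 ± 617 and 11583 ± 233 (SD, n = 3 per group). As a share of all normalized counts the members took 0.149, 0.192 and 0.190% in IgHMOG iGBGFP and 0.168, 0.191 and 0.160% in WT iGB6, and these shares overlapped.

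**Figure D2:**
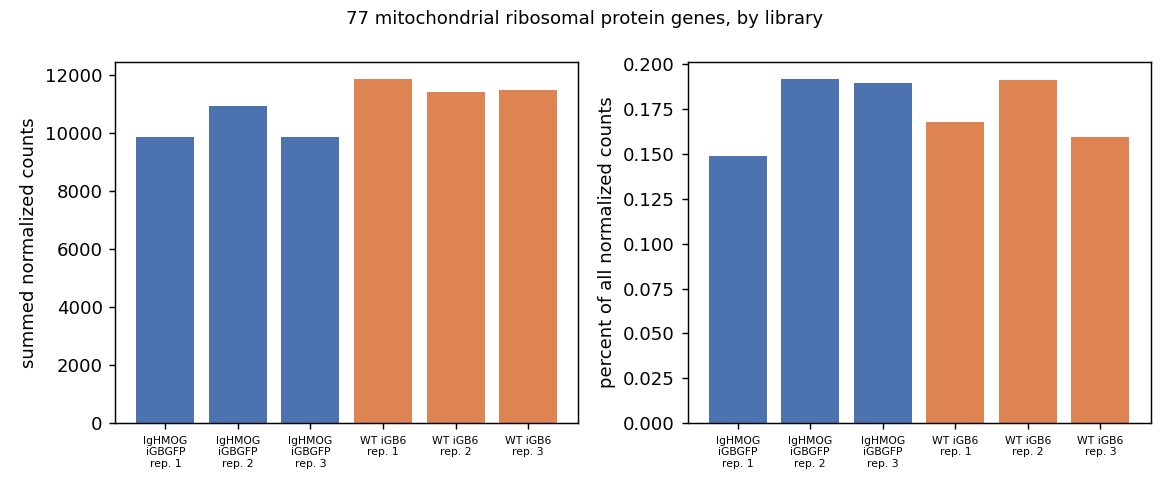
Bars give, for each of the 6 libraries, the normalized counts summed over the 77 members (left) and the same sum as a percent of all normalized counts of the library (right). The sums are higher in each WT iGB6 library (11412 to 11849) than in each IgHMOG iGBGFP library (9850 to 10927), whereas the shares of the groups overlap.

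The values were also split by sex. In the 1 female of each group, 56 of 70 tested members were higher in WT iGB6 and the median difference was 0.28 on the log2 scale. Between the 2 males of each group, 44 members were higher and the median was 0.0714. Medians over all tested genes were 0.02 and 0.0056 in these comparisons. IgHMOG iGBGFP replicate 1 was the library with the lowest members, with 11 of 70 above their own mean over all libraries, and WT iGB6 replicate 1 had the most, with 49. In limma with an interaction of sex and group, 0 members and 0 of all tested genes had an adjusted p under 0.05, and 0 members had an unadjusted p under 0.05. The same interaction was also fitted with no filter on low values, which took in genes with a mean under 10. Such a model fits the 1 female library of each group exactly, so its counts are not read for the members. The female arm has 1 library per group and so no replicate, and whether the members' difference depends on sex cannot be read from these values. Replicates 1 also share a number, so sex and anything else common to them cannot be told apart.

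Among large-subunit genes, Mrpl45 had the largest difference and the smallest p. Its product is a mitochondria-specific protein beside the exit of the peptide tunnel that anchors the particle to the inner membrane. Mrpl45 (ENSMUSG00000018882, GRCm38 chromosome 11, 97315716 to 97329920, plus strand) was at 353, 252 and 218 normalized counts in IgHMOG iGBGFP replicates 1 to 3 and at 510, 363 and 515 in WT iGB6. The groups did not overlap, but the highest IgHMOG iGBGFP library and the lowest WT iGB6 library were close. Means were 274 ± 70.2 and 463 ± 86.3 (SD, n = 3 per group), a log2 fold change of 0.76 (SE 0.20, 95% interval 0.32 to 1.21) with an adjusted p of 0.0509 in limma, so it did not pass. It passed in DESeq2 on the recovered reads (adjusted p = 0.0261) and in the authors' deposited table (log2 fold change 0.72, adjusted p = 0.0225), and not in edgeR (adjusted p = 0.0531). Over all alternatives its adjusted p ran from 0.0191 to 0.197.

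Mrpl19 and Mrpl44 followed in order of p. Mrpl19, a homologue of a bacterial protein at the subunit interface, was at 259, 178 and 214 normalized counts in IgHMOG iGBGFP and at 358, 287 and 330 in WT iGB6. Its log2 fold change was 0.59 (SE 0.18, adjusted p = 0.0811 in limma), and 36.0% of its exon bases are also exon of Gcfc2, so its count is uncertain. Mrpl44, a mitochondria-specific protein with a fold related to ribonuclease III, was at 207, 161 and 145 in IgHMOG iGBGFP and at 309, 207 and 254 in WT iGB6. The WT iGB6 libraries of both genes were all above those of IgHMOG iGBGFP but for Mrpl44 the nearest pair stood at 206.6 and 206.8. The log2 fold change of Mrpl44 was 0.58 (SE 0.19, adjusted p = 0.0914 in limma). Mrpl18, a homologue of a bacterial protein that binds ribosomal RNA, had the highest mean count of the members and was at 380, 414 and 358 against 509, 529 and 484, with a log2 fold change of 0.40 (SE 0.17, adjusted p = 0.172 in limma).

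Of the small subunit, Mrps22 and Mrps10 had the largest differences. Mrps22, a mitochondria-specific protein, was at 35.8, 37.9 and 44.0 normalized counts in IgHMOG iGBGFP and at 72.3, 53.7 and 65.2 in WT iGB6, without overlap. Its log2 fold change was 0.68 with a wide 95% interval of 0.10 to 1.26 (adjusted p = 0.145 in limma), on 35 to 68 reads per library. Mrps10, a homologue of a bacterial protein of the small-subunit head, was at 60.4, 105 and 94.0 in IgHMOG iGBGFP and at 124, 129 and 119 in WT iGB6, and replicate 1 of IgHMOG iGBGFP was the low library. Its log2 fold change was 0.56 (SE 0.23, adjusted p = 0.174 in limma) and 0.32 without IgHMOG iGBGFP replicate 1 or WT iGB6 replicate 1, and 50.1% of its longest coding transcript has a near-identical copy in another annotated gene, so that its count is uncertain too.

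The lowest fold changes were those of Mrps28, Mrpl23, Mrps2, Mrpl43 and Mrpl4, and none passed. Mrpl43, a mitochondria-specific protein of the large subunit (chromosome 19, 45004829 to 45006442, minus strand), was at 286, 287 and 243 normalized counts in IgHMOG iGBGFP and at 204, 216 and 232 in WT iGB6. It was the only tested member whose WT iGB6 libraries all lay below those of IgHMOG iGBGFP, with a log2 fold change of -0.32 (SE 0.18, adjusted p = 0.315 in limma). Of its exon bases, 33.4% are shared with Twnk, the mitochondrial DNA helicase gene, which was itself at a log2 fold change of -0.42 (adjusted p = 0.469). Mrpl4 was at 235, 342 and 339 in IgHMOG iGBGFP and 212, 313 and 211 in WT iGB6, with overlap and a log2 fold change of -0.32 (SE 0.20). Mrps2 (-0.37, SE 0.27), Mrpl23, which sits at the tunnel exit (-0.39, SE 0.31), and Mrps28 (-0.41, SE 0.40) had means under 50 normalized counts in each group, and their libraries overlapped. Without WT iGB6 replicate 3 the values of Mrpl4, Mrpl23 and Mrps28 were -0.13, -0.17 and -0.26.

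**Figure D3:**
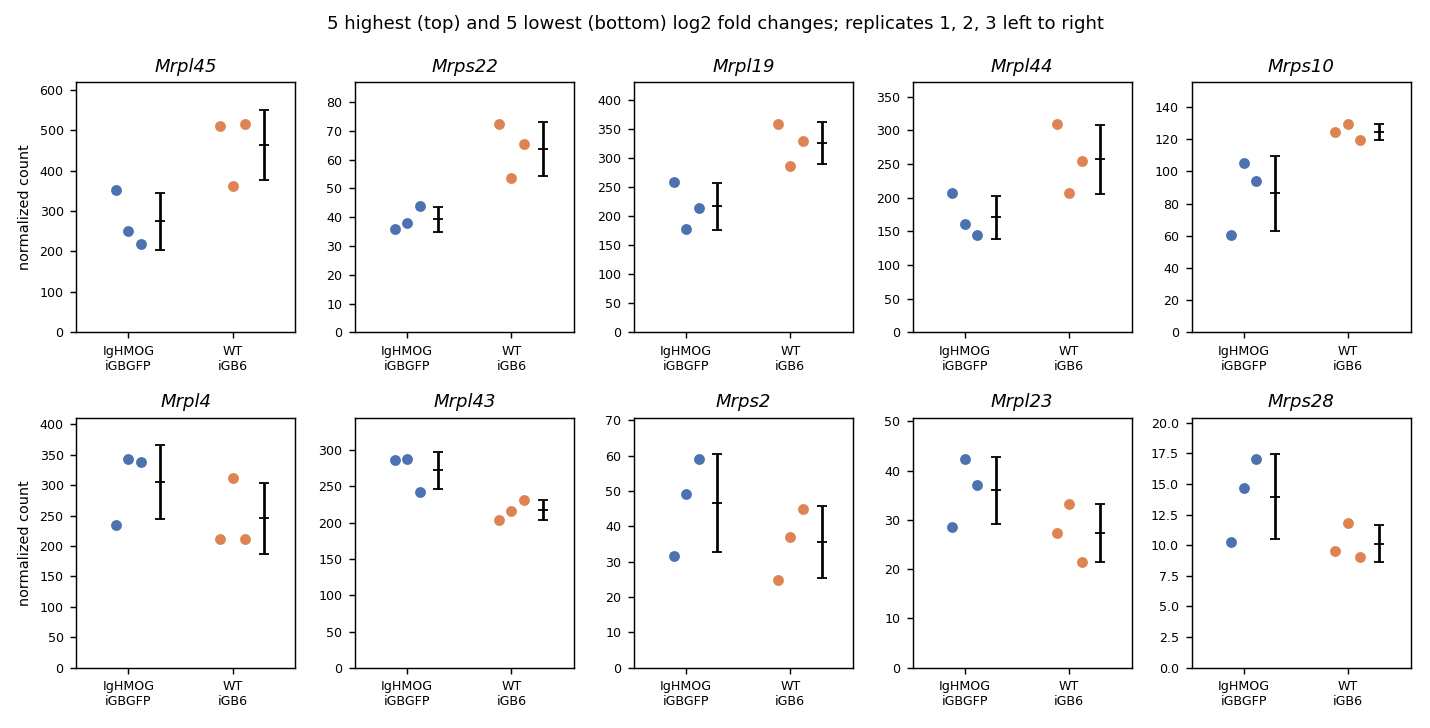
Normalized counts of the 5 members with the highest (top row) and the 5 with the lowest (bottom row) log2 fold change, with a point for each library (replicates 1, 2 and 3 from left to right) and the mean with its SD beside them (n = 3 per group). The WT iGB6 points lie above all IgHMOG iGBGFP points in the top row, by little for Mrpl44 and Mrpl45, and of the bottom row only Mrpl43 does not overlap.

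The libraries were also compared without a model, on the deposited scale. Of the 70 tested members, 18 had all WT iGB6 libraries above all IgHMOG iGBGFP libraries, where 12.2% of all tested genes did. In the other direction there was 1, where 11.4% of all tested genes did, and 51 overlapped. As shares of the tested members these are 25.7% and 1.43%. The genes of both subunits lay on the same side of 0 in the middle. The median log2 fold change was 0.18 for 47 tested large-subunit genes, of which 34 were above 0, and 0.18 for 22 small-subunit genes, of which 17 were above 0. By structural class, the median was 0.05 for 27 large-subunit homologues of bacterial proteins and 0.28 for 20 mitochondria-specific large-subunit genes. In the small subunit it was 0.13 for 14 homologues of bacterial proteins and 0.24 for 8 mitochondria-specific genes. These medians are descriptions, and the differences between the classes were not tested. Mrps18a and Mrps18b were counted as mitochondria-specific, although they derive from a bacterial protein, so the classes are not strictly by descent.

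The paralogues Mrps18a, Mrps18b and Mrps18c derive from a single bacterial small-subunit protein, and the product of Mrps18a sits in the large subunit. Mrps18c was at 298, 256 and 192 normalized counts in IgHMOG iGBGFP and 371, 250 and 346 in WT iGB6. Mrps18a was at 208, 216 and 161 against 221, 230 and 207, and Mrps18b at 23.5, 32.8 and 41.0 against 32.0, 29.2 and 27.0. All 3 overlapped between the groups, with log2 fold changes of 0.38 (SE 0.20), 0.18 (SE 0.20) and -0.11 (SE 0.31). Per kb of exon, their mean levels were 265, 56.1 and 14.8 normalized counts in that c, a, b order. In the same order, all annotated exons together span 1076, 3690 and 2089 bases, and the longest coding transcripts 820, 884 and 1079. The levels per kb therefore depend on the annotation. Copies in other annotated genes cover 32.3% of the Mrps18c transcript and 38.6% of that of Mrps18b, so these levels are uncertain.

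Levels differed far more between members than between groups. Per kb of exon, the highest mean normalized counts were those of Mrps21 (327), Mrpl18 (319), Mrpl28 (279), Mrpl36 (267) and Mrps18c (265), beside a median of 48.3 over the 77 members. Mrpl28 was at 303, 413 and 326 normalized counts in IgHMOG iGBGFP and 427, 480 and 361 in WT iGB6, and Mrpl36, a small zinc-binding homologue of a bacterial protein, at 281, 356 and 318 against 266, 328 and 309. Mrps21 was at 233, 294 and 182 against 242, 238 and 262. All 3 overlapped between the groups, and the order among these high members was not tested. A near-identical copy in Gm6181 covers 54.1% of the longest coding transcript of Mrps21, so its level is uncertain. Genes of the small subunit had a median of 30.8 normalized counts per kb over those tested and genes of the large subunit 62.7. The length used is that of all annotated exons together, which can far exceed the longest coding transcript (8079 and 1113 bases for Mrps10). Comparisons of levels per kb between genes or subunits therefore depend on the annotation.

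The other 7 members were too low to test. Mrpl53 had 0.862 normalized counts in IgHMOG iGBGFP replicate 2 and 0 in the other libraries. Mrps34 was at 0 to 2.00 in IgHMOG iGBGFP and 0 to 4.50 in WT iGB6, and Mrps30 at 2.00 to 4.31 and 0 to 1.19, without overlap but on at most 5 reads. Mrps24 (2.05 to 5.17 and 0 to 5.62), Mrpl3 (1.00 to 6.14 and 4.74 to 5.93) and Mrps6 (5.11 to 11 and 4.74 to 10.3) also overlapped. Mrps26 was at 5.17 to 8.00 in IgHMOG iGBGFP and at 7.10 to 21.3 in WT iGB6. A count of 0 allows up to 3 reads, or 2.37 to 3.56 normalized counts depending on the library, for counting error alone. Of the exon bases of Mrpl53, 88.0% also belong to exons of Ccdc142os or Gm42688, and of those of Mrps34 77.8% belong to Mapk8ip3 or Nme3, whereas Mrps6 shared 19.9%, Mrps24 15.4%, Mrps30 9.35%, Mrpl3 3.72% and Mrps26 0.184%. The median was 15.4% over the 7 untested members and 0% over the 70 tested ones. Of the tested members, 1 had over 50% of its exon bases shared. How the authors' counting treated reads in shared exons was not stated in the sources at hand, and the part of the sharing in these low counts was not tested.

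The other genes of mitochondrial translation described here were also without calls, and their values are given on the deposited scale. All 5 mitoribosomal proteins that carry other names were tested and above 0, with none called and a median of 0.26. Ptcd3, a small-subunit protein with RNA-binding repeats, was at 80.8, 88.0 and 117 normalized counts in IgHMOG iGBGFP and 141, 134 and 155 in WT iGB6 (log2 fold change 0.60, SE 0.22, adjusted p = 0.125 in limma). Dap3, a GTP-binding small-subunit protein, was at 158, 166 and 179 against 207, 205 and 192 (0.27, SE 0.18). Neither gene overlapped between the groups. Aurkaip1, the most abundant of the 5 by mean count, did overlap (0.12, SE 0.19).

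Of 27 mitoribosome assembly factors, 19 were tested, 14 were above 0 and none was called, with a median of 0.13. Eral1, a GTPase that acts on the small-subunit ribosomal RNA, was at 114, 64.7 and 117 normalized counts in IgHMOG iGBGFP and 155, 132 and 159 in WT iGB6 (log2 fold change 0.63, SE 0.26, adjusted p = 0.164 in limma). Of 16 translation factors, 13 were tested and none was called, with 7 above 0, 6 below and a median of 0.11. The lowest was Lrpprc, which stabilises mitochondrial mRNAs, at -0.38 (SE 0.38), and the elongation factor gene Tufm was at -0.08 (SE 0.21). The elongation factor gene Gfm1 was at 0.54 (SE 0.27) and the initiation factor genes Mtif3 and Mtif2 were at 0.44 (SE 0.20) and 0.43 (SE 0.24). Of 10 genes of mitochondrial DNA replication and transcription, 9 were tested and none was called, with 5 above 0, 4 below and a median of 0.05. Of 9 nuclear regulators, 7 were tested and none was called, with 5 above 0 and 2 below. Yy1 was at -0.44 (SE 0.31), Gabpb1 at 0.40 (SE 0.28), Nrf1 at 0.18 (SE 0.17) and Gabpa at 0.11 (SE 0.21).

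The tested RNAs from mitochondrial DNA lay on the other side of 0, by little for some, and also without calls. The 7 tested mitochondrial mRNAs were all below 0, with a median of -0.26. The most abundant, mt-Cytb and mt-Co1, were near 0 at -0.006 and -0.055, as was mt-Nd5 at -0.053. Summed over the list, the groups overlapped, at 9241 to 11761.5 normalized counts in IgHMOG iGBGFP and 8896 to 11033 in WT iGB6. The lowest was mt-Nd1, a subunit of respiratory complex I, at 929, 1332 and 1441 normalized counts in IgHMOG iGBGFP and 658, 1149 and 796 in WT iGB6 (log2 fold change -0.52, SE 0.18, adjusted p = 0.114 in limma). The groups overlapped for all 7. Of the ribosomal RNAs, mt-Rnr2 of the large subunit was at 8000, 9678 and 6056 against 5534, 5849 and 5434 without overlap (-0.47, SE 0.21, adjusted p = 0.203 in limma), and mt-Rnr1 of the small subunit was at -0.77 (SE 0.29, adjusted p = 0.135).

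**Figure D4:**
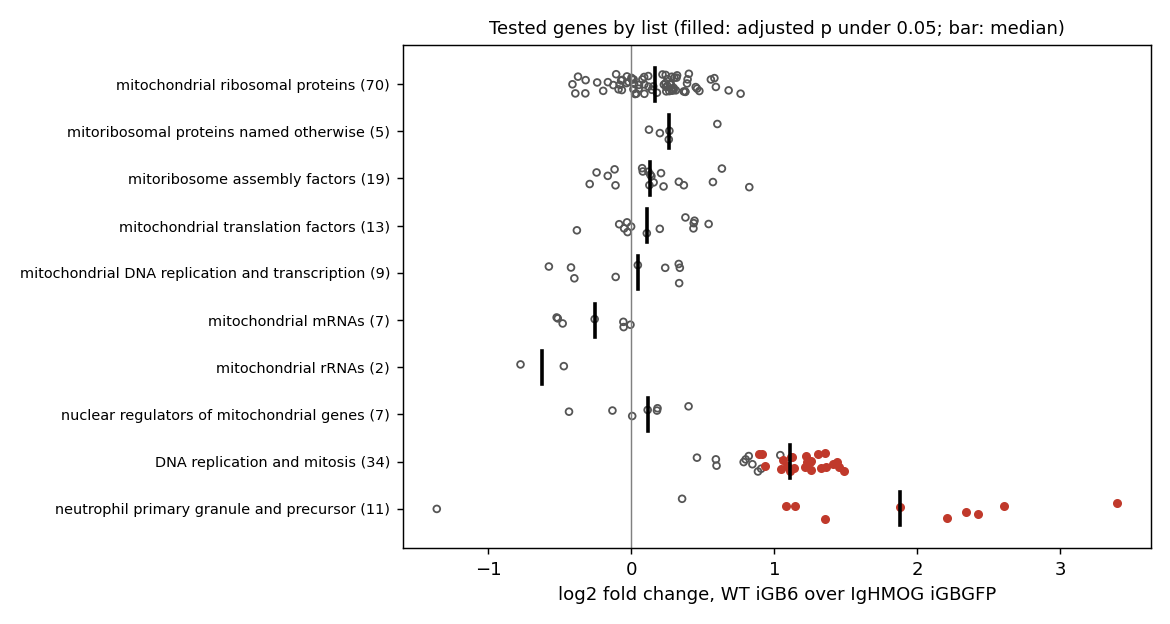
Difference between the groups (log2, WT iGB6 minus IgHMOG iGBGFP) for each tested gene, by list (number of tested genes in parentheses), with filled points for genes at an adjusted p under 0.05 and a bar at the median. The 70 mitochondrial ribosomal protein genes (median 0.17) hold no filled point, and the lists of DNA replication and mitosis (median 1.11) and of neutrophil precursors (median 1.88) hold 24 and 9.

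Genes of cell division and of neutrophil precursors moved with the groups in the same libraries. Of 34 genes of DNA replication and mitosis, 24 rose and none fell, and their summed level was 5846 to 8678 normalized counts in IgHMOG iGBGFP and 10220 to 20329 in WT iGB6, with WT iGB6 replicate 1 the highest. The count was 5 without IgHMOG iGBGFP replicate 1 (128 genes called in all) or WT iGB6 replicate 1 (133), 1 without IgHMOG iGBGFP replicate 3 (28) and 0 without IgHMOG iGBGFP replicate 2 (4), where 607 genes were called with all libraries. Of 11 tested neutrophil primary granule and precursor genes, 9 rose, with sums of 20606 to 23057 and 31504 to 44348. On the log2 scale 10 of them lay above 0 and 1 below, at -1.36 and not called. Among markers of other cells, 6 of 8 tested basophil and mast cell genes fell (sums 2004 to 7808 and 493 to 1711), as did 5 of 7 tested conventional dendritic cell genes (495 to 1625 and 80.6 to 326). None of the tested B cell (2), T cell (3) or erythroid (8) genes was called, and their sums overlapped between the groups. Of the erythroid genes 7 were above 0 and 1 below, with a median of 0.91. The tested T cell genes were all below 0, with Cd4 at -1.13, Lck at -0.04 and Cd3d at -0.02. Among the untested ones, all low, Cd8a, Trac and Cd3e had every WT iGB6 library below every IgHMOG iGBGFP library, and Cd3g overlapped. The B cell genes Cd79b and Cd79a were at -0.77 and 0.12. No marker of these lists was at 0 in every library. Their part in the members' values was not tested.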

How the data were processed

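Libraries were made from 8 to 16 ng of total RNA with 17 cycles of cDNA amplification and 9 further cycles, per the labels' protocols, which describe no molecular identifiers, so counting error is a lower limit. The submitters' processing notes name cutadapt 4.4, STAR 2.7.10b, featureCounts 2.0.3 and DESeq2 2.11.40.7 with builds GRCm38 and mm10. The annotation, strand and multimapping settings of the counting were not stated in the sources at hand. The deposited signal is a normalized count per gene and library: the authors divided whole reads by 1 size factor per library, and 100% of values divided by the column's step were whole within 0.001. A second deposited table holds the authors' DESeq2 results, with log2 fold changes and their errors, a Wald score, p-values and adjusted p-values per gene, whose columns were identified from their values for want of a header.

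Ensembl identifiers were matched to GENCODE M21 for 42548 of 43432 genes. Groups were compared with limma 3.58.1 (R 4.3.3) on log2(normalized count + 1), with a variance trend, group and sex, for genes with a mean of at least 10, two-sided, with Benjamini-Hochberg adjustment over all genes tested and a threshold of 0.05. The log scale understates the change of low genes. Alternatives were edgeR 4.0.16 and DESeq2 1.42.0 on the recovered reads, other scalings, filters, pseudocounts and covariates, and leaving out each library. The fits were tested on simulated data. Exon sharing came from GENCODE exons on either strand, and copies from blastn 2.17.0 against GENCODE transcripts at 97% identity over at least 75 bases. The members, lists and named genes (the 5 highest and 5 lowest fold changes, levels per kb and smallest p, all untested members, the Mrps18 paralogues, and up to 4 genes with the smallest p and the most abundant gene of a list) were chosen with earlier results of these data known. The list of tRNA-charging enzymes is not reported here.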

Additional observations from a re-analysis of the deposited data

How the results depend on the processing

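No member was called lower under any of the 20 alternatives run. The number called higher was 0 in the main test and 1, Mrpl45, with DESeq2 on recovered reads, in the authors' deposited table, with no filter on low values, with a pseudocount of 5 and with the replicate block, and 4 with library weights (Mrpl19, Mrpl44, Mrpl45 and Mrps10, where 14.5% of all genes were called). Leaving out libraries gave 0 to 1, the 1 being Mrpl45 without WT iGB6 replicate 2, where 1090 genes were called in all. The counts of 0 came with 4, 28 and 128 genes called in all without IgHMOG iGBGFP replicates 2, 3 and 1, and with 133 and 657 without WT iGB6 replicates 1 and 3, so the counts with few calls in all say little about the members. The adjusted p of Mrpl45 ran from 0.0191 to 0.197 over its alternatives. The median log2 fold change of the members was 0.17 in the main test, 0.22 with a mean of at least 50, 0.0714 with males alone, and -0.038 with equal library totals (added after the data were seen), where that of all genes was -0.19. Without single libraries it ran from 0.0714 to 0.215, lowest without IgHMOG iGBGFP replicate 1 or WT iGB6 replicate 1, which reduce the comparison to the males. Of 336 values of 17 named tested members under the alternatives, 6 changed sign, for genes near 0: Mrps18b with library weights (0.0215) and without single libraries (-0.373 to 0.0604, above 0 without IgHMOG iGBGFP replicate 3 or WT iGB6 replicate 3), Mrps21 without single libraries (-0.111 to 0.283, below 0 without IgHMOG iGBGFP replicate 3) and with equal totals (-0.116), and Mrps18a with equal totals (-0.0279). The cause was not tested. Over all genes, 607 were called in the main test, 10 without the sex term and 1001 with the replicate block, and equal totals left 434, of which 18.9% were higher, beside 45.0% on the deposited scale. Same-numbered libraries had deviations from their group means that correlated at 0.48, 0.35 and 0.04, beside -0.51 to 0.29 for other combinations. These deviations still held any effect of sex. The main test did not take the numbers as pairs, and whether they mark pairs was not tested. Of 34 cell division genes, 5 were called with males alone, 7 with equal totals and 0 without the sex term. With 3 libraries a group, 8 members had intervals that reach a 2-fold change.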

Other observations

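The messages that the mitoribosome translates were unevenly represented in the table. Of 13 mitochondrial mRNAs, mt-Cytb and mt-Co1 had means of 4023 and 3538 normalized counts over the 6 libraries, and mt-Nd1, mt-Nd4, mt-Nd5, mt-Nd2 and mt-Nd6 had 1051, 665, 592, 270 and 171. The other 6 were at or near 0: mt-Atp6 at 2.14, mt-Nd3 at 1.66, mt-Co3 at 1.16, mt-Co2 at 0.463, mt-Atp8 at 0.287 and mt-Nd4l at 0 in every library. Near-identical stretches in other annotated genes, at 97% identity or more over at least 75 bases, cover 99.6% of mt-Atp6 (Gm10925), 99.6% of mt-Co2 (Gm28661), 99.9% of mt-Co3 (Gm28437), 99.1% of mt-Nd3 (Gm28438) and 99.0% of mt-Nd4l (Gm10222). They cover 0% of mt-Cytb, mt-Nd1, mt-Nd2, mt-Nd5 and mt-Nd6. High cover did not always go with a low count. Copies cover 100% of mt-Co1, at up to 99.8% identity, and 63.6% of mt-Nd4, and both are abundant. For mt-Atp8 the cover found was 0% and the count was near 0. Only annotated transcripts and stretches of at least 75 bases were searched, so 0% does not show that a gene has no copy in the genome. The treatment of reads that match several places was not stated in the sources at hand, and its part in these values was not tested.

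Copies also touch the members. Stretches of at least 75 bases at 97% identity in other annotated genes were found for 20 of the 77, and they cover at least 20% of the longest coding transcript of 13. The largest shares were those of Mrpl22 (86.0%, Gm6997), Mrpl27 (72.6%, several genes) and Mrpl23 (68.9%, Mrpl23-ps1). None of the 7 untested members was among the 13.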
